A study of Homo sapiens with 3 samples.

Results

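Proline is made from glutamate or from ornithine and is broken down again to glutamate, and arginine feeds the same network because arginase turns it into ornithine. Levels of the 9 genes PYCR1, PYCR3, ALDH18A1, PRODH, ALDH4A1, OAT, ARG2, ASS1 and ASL, which encode enzymes of these routes, were read among the 62754 genes measured by RNA-seq in MCF10A cells. The 9 were chosen by enzyme function, not by their level, although earlier results of these data were known. Each had a row in the table when Ensembl identifiers were matched to GENCODE release 44. MCF10A is an immortalized, non-tumorigenic human breast epithelial line. The cells carried the empty vector of a retroviral doxycycline-inducible expression system with no gene of interest and had been selected with puromycin. They were given neither doxycycline nor any other treatment beyond their culture medium. By the study's methods, the medium of MCF10A cells held mammary epithelial growth supplements, cholera toxin and penicillin-streptomycin. RNA was taken 27 h after seeding in 3 replicates of labelled batch 1, and 300 ng per library was depleted of ribosomal RNA. The labels do not say whether the replicates were separate cultures, so the spread between them may be technical. With 1 condition, levels of the genes were compared with each other and not between treatments.

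Both routes into proline meet at pyrroline carboxylate. ALDH18A1 makes it from glutamate and OAT from ornithine, the PYCR enzymes reduce it to proline, and PRODH and then ALDH4A1 oxidize proline back to glutamate in the mitochondria. Arginine is built from citrulline and aspartate by ASS1 and then ASL, and the mitochondrial arginase ARG2 splits it into ornithine and urea.

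Levels are those of RNA, and protein, enzyme activity and flux were not read here. They are given in TPM, that is, reads per base of transcript with each library brought to a total of 1000000. Genes can so be set side by side per length. The libraries held 15273329, 15446347 and 11166546 reads on annotated genes. All 6 markers on the list for basal and general epithelial cells were at or above 1 TPM, with a summed level between 11460 and 14794 TPM. Most of that sum came from KRT5, KRT14 and KRT17, at means of 6612, 4144 and 2669 TPM. The others were TP63 at a mean of 49.8 TPM, and CDH1 and EPCAM at means of 29.1 and 14.6 TPM. Of the markers of other cell types, 2 of 4 luminal ones reached 1 TPM. These were KRT18 at a mean of 413 TPM and GATA3 at 12.8 TPM. ESR1 and PGR had at most 3 reads in any library. The same cutoff was reached by 1 of 4 fibroblast markers, COL1A1 at a mean of 4.96 TPM, with COL1A2 and LUM at 0 reads. It was reached by 1 of 2 endothelial markers, PECAM1 at 1.77 TPM, with CDH5 at 0 reads, and by 0 of 3 immune markers. Summed levels were 372 to 456 TPM for the luminal list and at most 5.84 TPM for the fibroblast, endothelial and immune lists. Of 3 hepatocyte markers, 1 reached 1 TPM, CPS1 of the urea cycle, and that list summed to between 23.2 and 28.4 TPM. Replicate 3 stood apart: protein-coding genes held 79.6% of its TPM against 91.5% and 89.8% in replicates 1 and 2, and across the 8809 genes averaging 10 TPM or more the median of its log2 difference from the mean of the other replicates was -0.24.

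Of the 9 genes, 8 had a mean of at least 1 TPM, a cutoff that 24.9% of all genes and 56.7% of the 20046 protein-coding genes reached. The remaining gene, PRODH, had 0 reads in every replicate, as did 26.2% of protein-coding genes. The 8 measured genes fell into a high set of OAT, ASS1 and ALDH18A1 and a middle set of PYCR1, ARG2, PYCR3, ASL and ALDH4A1, with reads per gene and library between 151 and 2681. Their median percentile among the 14803 protein-coding genes with any reads was 66.1, and the median level of those genes was 14.7 TPM.

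**Figure D1:**
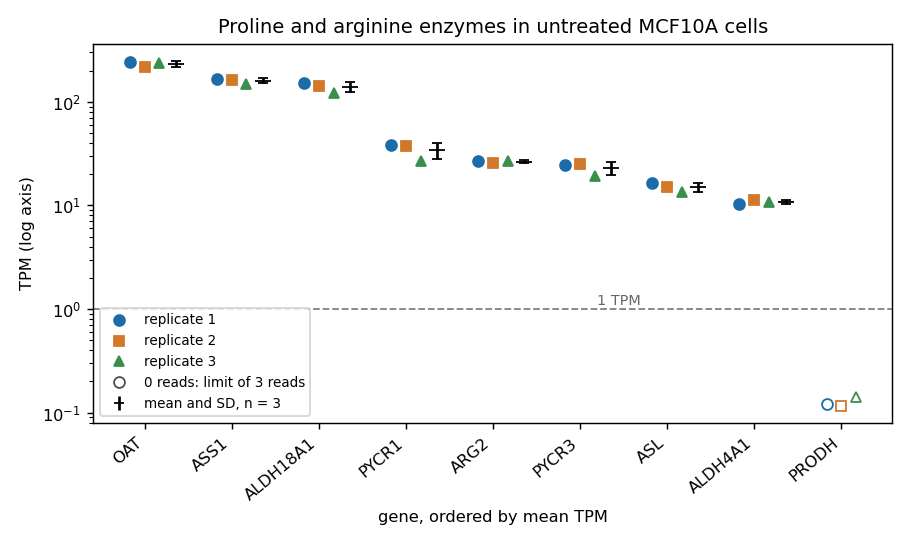
Level of each gene in TPM on a log axis, with 1 point per replicate (circle, square and triangle for replicates 1, 2 and 3) and a black bar for the mean and SD of n = 3. OAT, ASS1 and ALDH18A1 lie above 100 TPM, 5 genes lie between 10.3 and 38.2 TPM, and the open points of PRODH mark the limit of 3 reads, not a measured level.

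In the synthesis of proline from glutamate, ALDH18A1 (chromosome 10, 95605941 to 95656711, minus strand, hg38) was measured at 153, 142 and 122 TPM, a mean of 139 ± 15.3 TPM (SD, n = 3). It ranked 1056 among protein-coding genes. PYCR1 (chromosome 17, 81932384 to 81942412, minus strand), the mitochondrial pyrroline carboxylate reductase, was measured at 38.2, 37.1 and 27.01 TPM, a mean of 34.1 ± 6.16. Replicates 1 and 2 lay close together and replicate 3 lay below both, and without replicate 3 the mean was 37.6 TPM. PYCR3 (chromosome 8, 143603210 to 143609773, minus strand), the cytosolic reductase, was measured at 24.5, 25.3 and 19.1 TPM, a mean of 22.9 ± 3.41. It too was lowest in replicate 3, and the mean without that replicate was 24.9 TPM.

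The synthesis enzymes varied most between replicates. The SD of log2(TPM + 1) was 0.27 for PYCR1 and 0.21 for PYCR3, above the median of 0.19 over all genes that averaged 1 TPM or more, and it was 0.16 for ALDH18A1. The coefficient of variation of PYCR1 was 18.1% where the counting error of its reads alone would give 5.14%. Its log2 level in replicate 3 lay -0.48 from the mean of replicates 1 and 2, that of PYCR3 -0.39, and that of ALDH18A1 -0.27. These departures went the same way as the median of -0.24 over all genes averaging 10 TPM or more and were larger. In all, 5 of the 8 measured genes were lowest in replicate 3 (PYCR1, PYCR3, ALDH18A1, ASS1 and ASL), as were 82.8% of all genes at that level. What part the makeup of that library had in these values was not tested.

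The breakdown of proline was represented by 1 gene with reads. ALDH4A1 (chromosome 1, 18871430 to 18902724, minus strand), the dehydrogenase that completes the oxidation to glutamate, was measured at 10.3, 11.4 and 10.8 TPM, a mean of 10.8 ± 0.571. It was the lowest of the 8 genes with reads, at percentile 44.7, and its replicates differed little. PRODH (chromosome 22, 18912777 to 18936553, minus strand), the proline dehydrogenase that takes the preceding step, had 0, 0 and 0 reads. A count of 0 allows up to 3 reads, which at its counting length of 4736 bases is 0.120, 0.117 and 0.141 TPM, a limit that covers counting error only.

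That limit presumes that every read of PRODH could be assigned to it, and the sequence of the genome bears on this. An unlocalized scaffold of chromosome 22 in hg38 holds a near-identical copy. All 14 coding exons of the canonical transcript were matched there, 11 of them identical over their full length and 3 with 1 mismatch each, so that 1797 of 1800 coding bases (99.8%) were the same. Exon 12, numbered over the coding exons, is shown because it is one of the few that tell the copies apart. It lies at chr22:18916890-18916988 on the minus strand, and its copy at bases 142194 to 142292 of the scaffold. The capital letter marks the only base that differs.
PRODH exon: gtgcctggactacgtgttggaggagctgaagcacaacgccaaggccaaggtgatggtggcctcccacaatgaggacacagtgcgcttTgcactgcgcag
scaffold copy: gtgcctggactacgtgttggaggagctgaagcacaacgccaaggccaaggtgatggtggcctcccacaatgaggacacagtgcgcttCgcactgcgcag

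Of the 1571 words of 50 bases in single exons of the canonical PRODH transcript, 1419 (90.3%) also occur on the scaffold and 152 occur once in the genome. If only reads from those 152 words could be assigned, 3 reads would correspond to 3.74, 3.64 and 4.40 TPM. Over the exons of all its annotated transcripts 478 words occur once, and 3 reads from those would correspond to 1.19, 1.16 and 1.40 TPM. Both limits are above the cutoff of 1 TPM. The 0 reads of PRODH are therefore not given as a lack of expression. The neighbouring gene DGCR6, whose exons overlap 30.5% of the canonical PRODH transcript on the opposite strand, also had 0 reads in every replicate, and 94.9% of its words occur elsewhere. DGCR6L, its paralog, shares 44.8% of its words with other sites and was measured at 45.2, 38.8 and 33.1 TPM. DGCR2, which lies near PRODH and has no such words, was measured at 55.1 ± 7.87 TPM. PYCR3, whose exonic words all recur on alternative contigs of the assembly, held 430, 458 and 285 reads. Of the words over the whole canonical DGCR6 transcript, 520 (48.7%) also occur in transcripts of ENSG00000283809 and 460 (43.1%) in those of DGCR6L. Of the identifiers measured, 54 were not found in the annotation used. Whether any of them is the scaffold copy of PRODH, or whether reads were counted under ENSG00000283809, was not tested. The part of repeated words in the 0 reads of PRODH and DGCR6 was not tested. How the counting treated reads with more than 1 place was not tested.

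**Figure D2:**
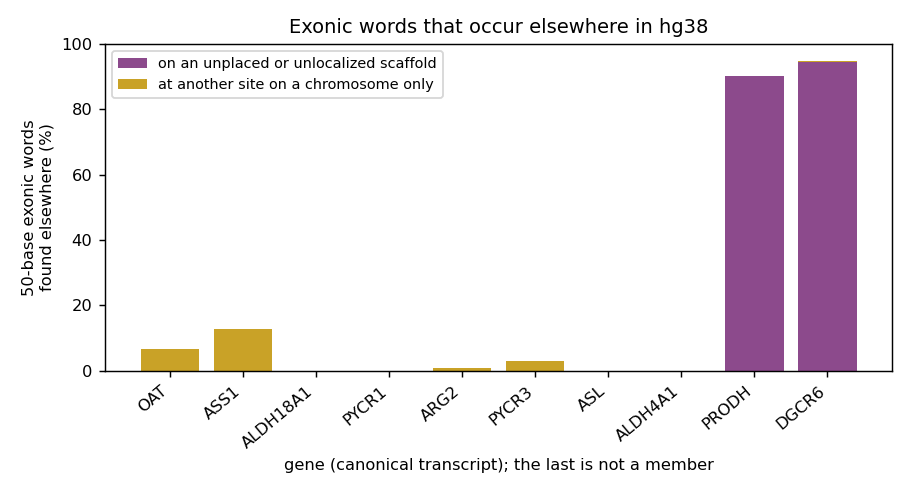
Share of the 50-base words within single exons of the canonical transcript that occur at another place in hg38, alternative contigs not counted, for the 9 genes and for DGCR6. PRODH at 90.3% and DGCR6 at 94.9% stand far above ASS1 at 12.8%, OAT at 6.59%, PYCR3 at 3.01% and ARG2 at 0.781%, and the others are at 0%.

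The ornithine route held the gene with the highest level of the 9. OAT (chromosome 10, 124397303 to 124418976, minus strand), which moves the delta amino group of ornithine and so links the urea cycle to proline, was measured at 242, 216 and 239 TPM, a mean of 232 ± 14.5. It ranked 579 among protein-coding genes, at percentile 96.1. Copies of 6.59% of its exonic words occur elsewhere, at sites on chromosome X. ARG2 (chromosome 14, 67619920 to 67651708, plus strand) was measured at 27.1, 25.8 and 26.7 TPM, a mean of 26.5 ± 0.675. It was the steadiest of the 8 genes, with a coefficient of variation of 2.54% against 6.27% from counting error alone. Exons of VTI1B, which was measured at 23.8, 21.9 and 19.2 TPM, overlap 904 bases (47.3%) of its canonical transcript on the opposite strand. The use of strand in counting is not named in the sources used here, and without it reads of ARG2 and VTI1B over those bases cannot be told apart.

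In the synthesis of arginine, ASS1 (chromosome 9, 130444961 to 130501274, plus strand), the argininosuccinate synthase, was measured at 168, 161 and 150.1 TPM, a mean of 160 ± 9.08. It ranked 884 among protein-coding genes, at percentile 94.0. ASL (chromosome 7, 66075800 to 66094697, plus strand), the argininosuccinate lyase that takes the next step, was measured at 16.3, 15.001 and 13.5 TPM, a mean of 14.9 ± 1.43. Both genes were lowest in replicate 3. On the same strand, 563 bases (26.3%) of the canonical ASL transcript are shared with ENSG00000249319, an overlapping protein-coding gene listed at 0 reads in every replicate. How reads over the shared bases were assigned was not tested.

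ASS1 has 14 annotated pseudogenes, which are spread over the genome and between 88.1% and 93.9% identical to its coding sequence. Together they held 10, 11 and 4 reads against 1733, 1712 and 1317 reads of ASS1, or 0.574%, 0.638% and 0.303%, and 8 of them had 0 reads. The most reads, 14 over all libraries, were those of ASS1P2, named after its values were seen.

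ASLP1, the pseudogene of ASL, had a mean of 1.12 TPM from 1, 8 and 2 reads. ASL itself held 302, 285 and 212 reads. Reads of the pseudogenes were therefore few beside those of either gene as the table counts them.

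In the order of levels, OAT lay above ASS1 by 0.54 ± 0.13 on the log2 scale (mean and SD of the differences within replicates, n = 3), and ASS1 above ALDH18A1 by 0.21 ± 0.08. The widest gap between measured neighbours was that of ALDH18A1 over PYCR1, 2.04 ± 0.13. PYCR3 lay above ASL by 0.61 ± 0.13 and ASL above ALDH4A1 by 0.46 ± 0.18. In each of these pairs the order held in all 3 replicates and the difference was larger than its SD, also when any 1 replicate was left out. That holds for the deposited TPM only, since leaving out replicates does not test the gene length. With canonical transcript lengths ASL lay above PYCR3, and these 2 genes did not differ beyond their spread. PYCR1 lay above ARG2 by 0.34 ± 0.29, a call that rested on single replicates. Without replicate 3, where the 2 genes were nearly level, the difference was 0.51 ± 0.02, but it was smaller than its SD without replicate 1 (0.27 ± 0.36) and without replicate 2 (0.25 ± 0.34). ARG2 lay above PYCR3 by 0.22 ± 0.24, which is smaller than its SD, so these neighbours did not differ beyond their spread, although the difference was larger than its SD without replicate 2 (0.32 ± 0.24) and just exceeded it without replicate 3 (0.09 ± 0.09). Each neighbour pair gave p = 0.25 in the two-sided exact sign-flip permutation test, also after Benjamini-Hochberg adjustment over the 8 pairs, of which the pair ending in PRODH rests on the limit of 3 reads. That is the smallest p that 3 replicates allow, and 0.05 could not be reached.

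RNA levels of pairs of enzymes from the same or linked steps were then set side by side. Their ratios do not measure the rates of the steps. PYCR1 was 1.56-, 1.47- and 1.42-fold as high as PYCR3 in replicates 1, 2 and 3, a log2 ratio of 0.57 ± 0.07 (SD, n = 3). ALDH18A1, which makes pyrroline carboxylate from glutamate, was 14.9-, 12.5- and 11.4-fold as high as ALDH4A1, which runs the opposite way, a log2 ratio of 3.68 ± 0.20. The level of ALDH18A1 was 0.630, 0.659 and 0.512 times that of OAT, the enzyme of the other route into the same intermediate, a log2 ratio of -0.74 ± 0.20. In all of these the direction was the same in every replicate.

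OAT was 8.92-, 8.36- and 8.96-fold as high as ARG2, the enzyme that supplies its substrate, a log2 ratio of 3.13 ± 0.06. ASS1 was 10.3-, 10.8- and 11.1-fold as high as ASL, a log2 ratio of 3.42 ± 0.06. These ratios spread less between replicates than that of ALDH18A1 over ALDH4A1. Set against the limit of 3 reads for PRODH at its counting length, PYCR1 was 318-, 318- and 191-fold as high as that limit. With the limit taken over the 478 words found once in all transcripts, the values were 32.05-, 32.05- and 19.3-fold. Over the 152 words of the canonical transcript they were 10.2-, 10.2- and 6.14-fold. They are lower bounds only if PRODH reads over the bases used were all assigned to it, which was not tested. Each of the 6 ratios gave p = 0.25 in the two-sided exact sign-flip permutation test and 0.25 after Benjamini-Hochberg adjustment.

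The deposited values divide reads by the longest transcript, counted as 3507 bases for ASL and 1957 for ASS1, where the canonical transcripts have 2140 and 1532 bases. The ratio of ASS1 over ASL kept its direction with either length, at 10.7-fold (geometric mean) from the deposited TPM, 8.36-fold with canonical lengths and 6.16-fold with canonical lengths less the bases shared on the same strand. The ratio of PYCR1 over PYCR3 was 1.48-fold with each of these lengths.

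**Figure D3:**
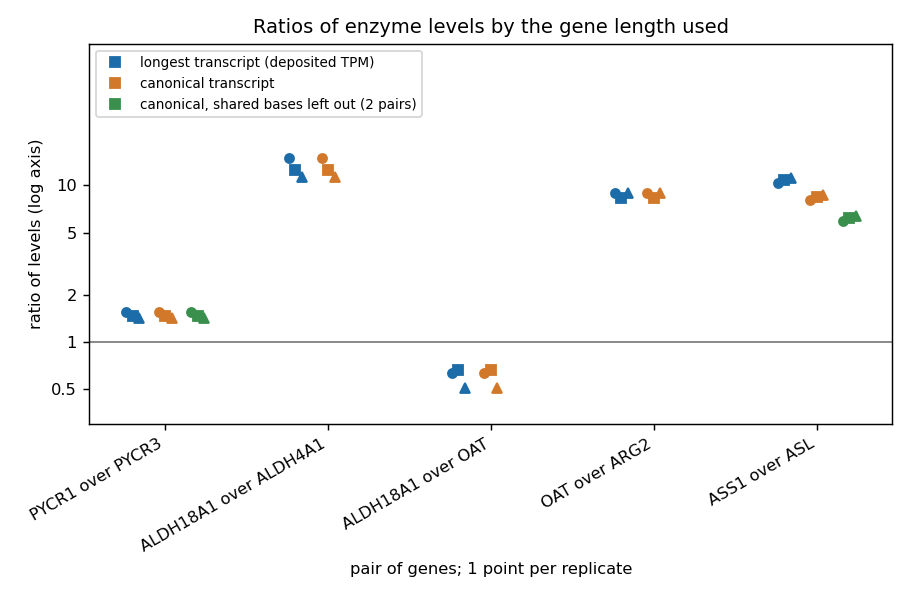
Ratio of the levels of 5 pairs of genes on a log axis, with 1 point per replicate (circle, square and triangle for replicates 1, 2 and 3) and the gene length used by color. ASS1 over ASL comes down from 10.7-fold to 8.36-fold and 6.16-fold with the length used, and every pair stays on its side of 1.

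The order of the middle set also moved with length. With canonical transcripts, ASL was at 20.03 TPM in place of 14.9 TPM and stood next to ARG2 at 21.6 TPM and PYCR3 at 18.7 TPM. ARG2 over ASL (0.11 ± 0.14 on the log2 scale) and ASL over PYCR3 (0.10 ± 0.13) then did not differ beyond their spread. OAT, ASS1 and ALDH18A1 stayed the highest, at 189, 167 and 113 TPM, and ALDH4A1 the lowest of those with reads at 8.81 TPM. The difference of OAT over ASS1 was then 0.18 ± 0.13 in place of 0.54 ± 0.13.

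Of 37 other genes of proline and arginine metabolism, listed by role, 23 had a mean of at least 1 TPM, 6 lay below it with reads and 8 had 0 reads. Among all protein-coding genes, 56.7% had such a mean and 26.2% had 0 reads. The counts here and in the lists below are therefore not read as a trait of the pathway. Among paralogs and the genes of proline release and hydroxylation, 5 of 7 reached 1 TPM. The highest was P4HA1, a catalytic subunit of the prolyl hydroxylase of collagen, at 95.8, 85.0 and 82.1 TPM. PRODH2, which acts on hydroxyproline, had 0 reads in every replicate, and none of its exonic words occurs elsewhere.

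Of the urea cycle genes beyond ASS1 and ASL, 2 of 4 reached 1 TPM. CPS1, the mitochondrial carbamoyl phosphate synthetase known from liver, was measured at 27.8, 28.4 and 23.0 TPM, a mean of 26.4 ± 2.95. CPS1 was itself listed as a hepatocyte marker, and the others on that list, ALB and APOA1, had 0 and at most 1 read per library. NAGS, which makes the activator of CPS1, was measured at 1.35, 2.45 and 1.59 TPM from 15, 28 and 15 reads. OTC, which joins carbamoyl phosphate to ornithine, and ARG1, the cytosolic arginase of liver, had 0 reads in every replicate, and none of the exonic words of either occurs elsewhere. Of the arginases, ARG2 was thus the one with reads.

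Of 10 genes that use arginine or act on its products, 5 reached 1 TPM. ODC1, the ornithine decarboxylase that starts polyamine synthesis, was measured at 544, 501 and 484 TPM, above each of the 9 enzymes in every replicate. GATM, which makes the precursor of creatine from arginine, was measured at 1.89, 1.54 and 1.65 TPM. AZIN2, an antizyme inhibitor, lay on both sides of the cutoff at 0.617, 1.14 and 0.534 TPM. AGMAT, the agmatinase, had 0 reads. The nitric oxide synthases NOS1, NOS2 and NOS3, named after their values were seen, had 1, 1 and 7 reads over all libraries.

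Of 12 transporters, 7 reached 1 TPM. SLC7A1, the cationic amino acid transporter that carries arginine into the cell, was the highest at 114, 117 and 91.9 TPM. SLC25A15, the mitochondrial ornithine carrier, was named after its values were seen and was measured at 36.2, 34.6 and 33.7 TPM. SLC7A3, SLC36A2, SLC6A7 and SLC6A20, transporters of cationic amino acids or of proline, had 0 reads. For the 8 genes with 0 reads, the limit of 3 reads lay between 0.102 and 0.458 TPM.

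All 4 regulators listed reached 1 TPM. ATF4, the transcription factor of the amino acid response, was the highest at 523, 523 and 427 TPM. MYC was measured at 451, 445 and 323 TPM, HIF1A at 118 to 146 TPM and PPARG at 1.78 to 2.57 TPM, and these 3 were named after their values were seen. All 4 were lowest in replicate 3, as were 82.8% of all genes averaging 10 TPM or more.

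**Figure D4:**
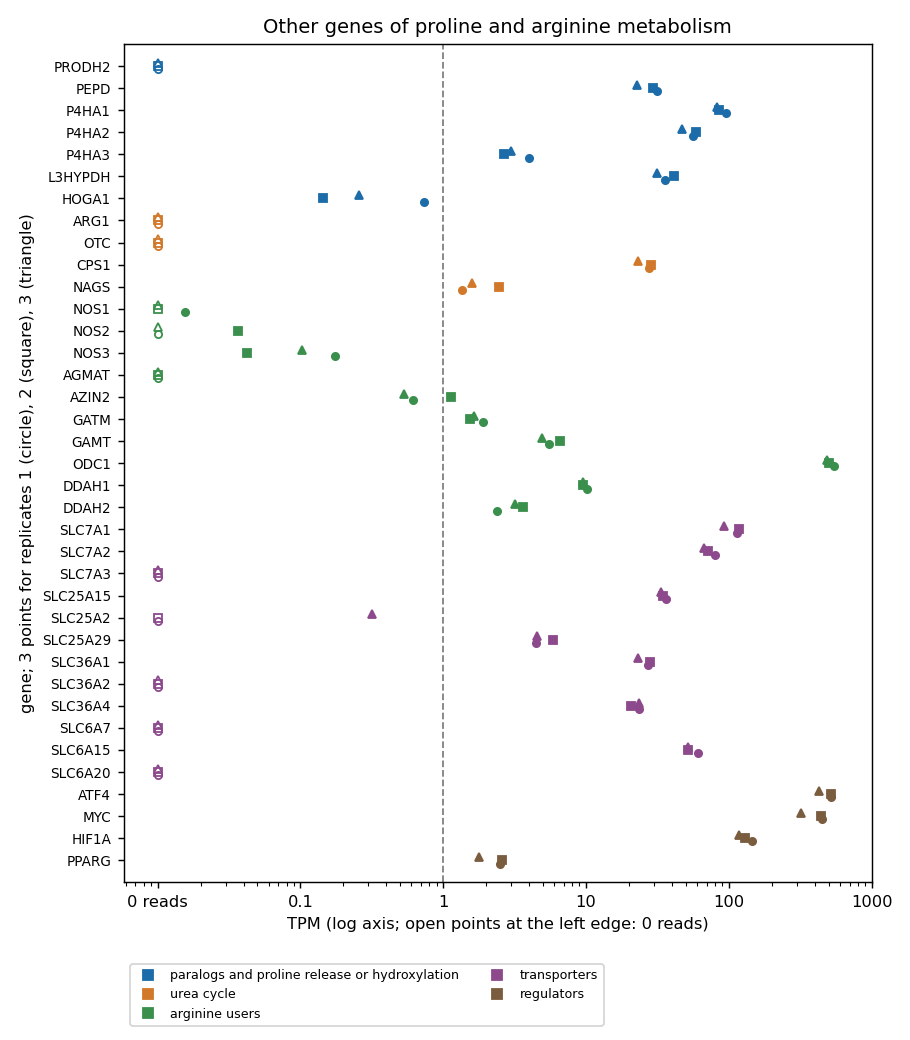
Level in TPM on a log axis of the 37 other genes of the pathway, colored by list, with 3 points per gene for the replicates. Open points at the left edge stand for 0 reads, and the dashed line marks 1 TPM. By their mean, 23 of the 37 genes reached it, beside 56.7% of all protein-coding genes.

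RefSeq promoters of GRCh38.p14 were matched for 6 of the 9 genes, with 8 promoters in all, and PYCR1, PYCR3 and PRODH had no entry. The 250 bases before the start were searched on both strands for CACGTG, the E-box bound by MYC, for TGACGTCA, the cyclic AMP response element, and for TGATGNAA, a composite element of ATF4. CACGTG was found in the promoter of ALDH18A1 and in 1 of 2 promoters of ASS1, and in 6.34% of all 35116 promoters. TGACGTCA was found at 2 positions before ARG2, and in 1.65% of all promoters. TGATGNAA was found in none of the 8, and in 3.14% of all. The 3 promoters with a match are shown with the matches in capitals, for ASS1 at chr9:130444711-130444960 on the plus strand, for ALDH18A1 at chr10:95656712-95656961 on the minus strand and for ARG2 at chr14:67619670-67619919 on the plus strand.
ASS1: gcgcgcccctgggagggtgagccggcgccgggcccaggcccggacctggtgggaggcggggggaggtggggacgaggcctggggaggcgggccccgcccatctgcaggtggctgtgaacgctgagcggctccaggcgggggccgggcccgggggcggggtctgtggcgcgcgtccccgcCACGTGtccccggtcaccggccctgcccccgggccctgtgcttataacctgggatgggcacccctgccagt
ALDH18A1: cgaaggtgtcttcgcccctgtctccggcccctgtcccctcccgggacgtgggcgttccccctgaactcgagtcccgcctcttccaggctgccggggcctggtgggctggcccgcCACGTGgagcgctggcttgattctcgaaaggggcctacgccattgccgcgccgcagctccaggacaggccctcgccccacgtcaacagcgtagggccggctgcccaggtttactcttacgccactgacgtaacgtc
ARG2: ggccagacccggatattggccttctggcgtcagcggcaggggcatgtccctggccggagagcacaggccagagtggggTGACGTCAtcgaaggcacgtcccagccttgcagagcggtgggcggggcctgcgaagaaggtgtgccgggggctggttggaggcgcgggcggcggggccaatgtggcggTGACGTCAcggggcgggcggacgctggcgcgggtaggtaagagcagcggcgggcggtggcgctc

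The letters describe these windows only, since no binding was measured here. The promoters were rich in G and C, at 78.8%, 68.8% and 72.4% against a median of 58% over all promoters.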

How the data were processed

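Total RNA of 3 replicates of MCF10A cells with an empty vector was sequenced after depletion of ribosomal RNA. By the study's methods the authors used Seq2science to map the reads to hg38 and to count them, and the submitters' processing notes name fastp, STAR, MultiQC and GRCh38.p14. The release of the annotation and the strand setting are not given in the sources used here. The authors deposited TPM values of 62754 genes per replicate, not pooled. All columns of values were used (0 left out).

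Gene identifiers were matched to GENCODE release 44, in which 62700 were found and 54 were not. TPM multiplied by the length of the longest transcript, less 1 base per exon, was divided by its smallest value above 0, which gave whole numbers of reads for 100% of values within 0.02. A count of 0 was given the limit of 3 reads. Limits and counting errors cover counting only. Depth sets the precision, with 1 read worth the most TPM in replicate 3.

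Since there is 1 condition, levels were compared within replicates on the log2 scale by the exact sign-flip permutation test (two-sided, 3 pairs). Neighbours were called separate where all 3 replicates gave the same sign and the mean difference exceeded its SD. The enzymes, lists and tests were chosen with earlier results of these data known. Named genes were the 9 enzymes, PRODH2 and ARG1, pathway genes with a mean from 0.5 to 2 TPM or 0 reads, the highest gene of each list, and pseudogenes of at least 1 TPM, and others are marked as chosen after their values were seen. Neighbours of PRODH, genes that overlap an enzyme and the marker genes were named for those checks. Words of 50 bases were searched in hg38 on both strands, and exons of PRODH and pseudogenes of ASS1 were aligned with BLASTN 2.17.0. The recovery of reads was run on simulated data made with the same gene lengths, so that run could not test the lengths. A gene of the lists and its results are not reported here. Alternatives covered the cutoff, the replicates, the scaling of TPM, the pseudocount and the gene length. Versions were scipy 1.17.1, pandas 2.3.3, numpy 2.4.6, matplotlib 3.10.9 and Python 3.11.15.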

Additional observations from a re-analysis of the deposited data

How the results depend on the processing

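The number of enzymes at or above 1 TPM was 8 at cutoffs of 0.5 and 2 TPM and under every other alternative run, and that of the other pathway genes lay between 21 and 24. The median level of the 9 enzymes, 26.5 TPM, became 30.6 with TPM rescaled to protein-coding genes, 28.3 without mitochondrially encoded genes and 21.6 with canonical transcript lengths. The median percentile of the 8 with reads, 66.1, became 55.9 among genes of at least 1 TPM and 75.0 among all protein-coding genes, since other genes were ranked. With canonical lengths the log2 ratios of PYCR1 over PRODH and ASS1 over ASL moved from 8.07 and 3.42 to 6.96 and 3.06. On log2(TPM + 1) they were 5.12 and 3.34, and on log2(TPM + 0.1) PYCR1 over PRODH was 8.40. For PRODH the pseudocount also takes the place of the limit of 3 reads. Lengths without bases shared on the same strand, an alternative chosen after seeing the data, gave 2.62 for ASS1 over ASL. Each ratio had the same sign in all 3 replicates, so leaving out 1 of them could not turn it. With each replicate left out in turn, PYCR1 over PYCR3 lay between 0.53 and 0.60 and ALDH18A1 over ALDH4A1 between 3.57 and 3.77. ALDH18A1 over OAT lay between -0.82 and -0.63, OAT over ARG2 between 3.11 and 3.16, and ASS1 over ASL between 3.40 and 3.45. PYCR1 over the limit of 3 reads for PRODH lay between 7.94 and 8.31. The median level lay between 26.3 and 26.9 TPM. The number of separate neighbours, 7 of 8, lay between 6 and 8, and PYCR1 over ARG2 was no longer among them without replicate 1 or 2. That number includes ALDH4A1 over PRODH, where PRODH is set to the limit of 3 reads. Neighbours were sorted by the means of the same replicates, which favours an order that holds across them. No paired analysis was possible because all samples belong to 1 group and share no replicate number with another, so the tests pair genes within a library and not samples. Of the levels of the 8 enzymes with reads under the alternatives, 47 moved by less than the SD between replicates and 17 by more, all of the latter under rescaling or canonical lengths. Rescaling to protein-coding genes moved 6 levels, leaving out mitochondrially encoded genes 4 and canonical lengths 7. With 3 replicates, the median or leaving out 1 replicate cannot move a mean by more than their SD. Those settings therefore do not show that the levels are stable. Depth limits the genes with 0 reads, and shared sequence limits PRODH.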
